A study of Homo sapiens with 16 samples.

Results

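The windows described here are those of the immunoglobulin variable (V) gene segments, the stretches of DNA from which B cells assemble the variable part of their antibody chains. They were taken from a table of read counts over windows of 2000 bp centred on annotated transcription start sites. A window was a member if its symbol began with IGHV on chromosome 14, IGKV on chromosome 2 or IGLV on chromosome 22 and its coordinates were distinct. This gave 275 windows out of 237274 with distinct coordinates, of which 126 belong to the heavy chain locus (IGH), 76 to the kappa locus (IGK) and 73 to the lambda locus (IGL). V segments named as orphons, copies outside the working loci, were left out, which removed 18 windows on the same 3 chromosomes. Coordinates are those of the count table, for which the submitters' processing notes name the human build hg38. A further 175 V segment windows on alternate or patch contigs of the assembly were also left out.

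ChIP-seq was performed in BJ-5ta, a line of human fibroblasts immortalized with hTERT, with an antibody that the labels call H3 and the methods of the study name as directed against H3K9me2. Wild-type (WT) cells were compared with ΔLEO1 cells, a single clone (clone 13) made with CRISPR plasmids aimed at exons 1 and 2 of LEO1, which encodes a subunit of the PAF1 complex. Both genotypes were grown in 10% serum, in which they proliferate, or held in 0.1% serum for 10 days, after which they are quiescent, and fly chromatin was added to each sample. Each of the 4 combinations has a ChIP and an input library in replicates A and B, 16 libraries in all, and the labels do not say that A and B are separate cultures, so every p-value below measures only the spread between these libraries.

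V segments are joined to joining (J) segments, and in the heavy chain locus also to diversity (D) segments, by V(D)J recombination in developing lymphocytes. In other cell types the loci are not rearranged and their segments are silent. Each segment has its own promoter and codes for most of a variable domain, and many V segments are pseudogenes that cannot give a chain. The segments arose by repeated duplication, so that neighbours are paralogs and part of the IGK locus exists as an inverted copy. H3K9me2 is a histone mark of silent chromatin that often covers long stretches of the genome.

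The 7 usable ChIP libraries held between 1895575 and 3266083 reads over distinct windows, and the 8 inputs between 2844490 and 7947304. ΔLEO1 ChIP replicate A in 10% serum held 50 reads over distinct windows and 0 over the V segments, and it was left out. ΔLEO1 in 10% serum is therefore represented by 1 ChIP library, which in every test is assumed to vary like the other groups. The spike-in was not used here, so counts were scaled by library total and TMM factor (CPM), and neither scale would reveal a genome-wide rise or fall of the mark. At the 3 windows of LEO1 itself, summed input levels were scaled by library total alone, without TMM factor. They ranged from 10.1 to 14.4 CPM in ΔLEO1 (n = 4) and from 14 to 18.5 CPM in WT (n = 4). The inputs thus overlapped and do not check the genotype labels. At start sites of a list of housekeeping genes, active in most cells, 92 of 104 tested windows were lower in ChIP than in input, with a median log2 ratio of -1.88. In a list of fibroblast genes, among them collagens, 104 of 119 windows were lower, with a median of -1.67. Over all tested windows 38.7% were lower, and both lists hold several windows per gene.

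How many reads a V segment window could hold was examined first, in the inputs, where antibody plays no part. The heavy chain segments were almost empty. No input read fell in 113 of the 126 IGHV windows (89.7%), against 7458 of 218380 windows on the primary chromosomes (3.42%). Among the empty ones were IGHV6-1, the V segment nearest to the D segments, and IGHV3-23, a segment common in antibodies. A count of 0 in all 8 inputs allows a level of up to 0.0634 CPM (3 reads), while the median window on the primary chromosomes held 4.71 CPM or 223 reads. Both levels are shares of the pooled input reads without TMM factor, and such limits cover counting error only.

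Most empty heavy chain windows had a named duplicate elsewhere in the assembly. Of 112 IGHV windows with a window of the same symbol on an alternate or patch contig, 106 (94.6%) had no input read, and of the 14 without, 7 had none. In the lambda locus, 7 of 16 IGLV windows with such a duplicate had no input read and their median was 1.5 reads, while 0 of 57 without a duplicate were empty and their median was 202 reads. These 16 windows lie next to each other, from IGLV5-45 to IGLV3-30. The kappa locus did not share this. There, 0 of 41 windows with a duplicate and 0 of 35 without were empty, with medians of 103 and 82 input reads. The duplicates differ in kind, however. Those with IGHV and IGLV symbols lay on alternate contigs only, 113 and 16 windows. Those with IGKV symbols numbered 41 on a patch contig and 5 on alternate contigs. The part of this difference in the counts was not tested.

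Across the other windows of the primary chromosomes, 4677 of 10322 with a duplicate (45.3%) and 2661 of 207783 without (1.28%) had no input read, and the 18894 windows on alternate and patch contigs were at 0 throughout. How reads that match several places were treated is not given in the sources used here, and its part in these counts was not tested. The D, J and constant segments of IGH shared the gap, with 47 of 47 windows at 0 input reads. Within the lambda span, the neighbouring genes PRAME, ZNF280A and ZNF280B, which lie between the same IGLV segments, were at 0 as well, and so were ADAM6 and FAM30A at the heavy chain locus.

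**Figure D1:**
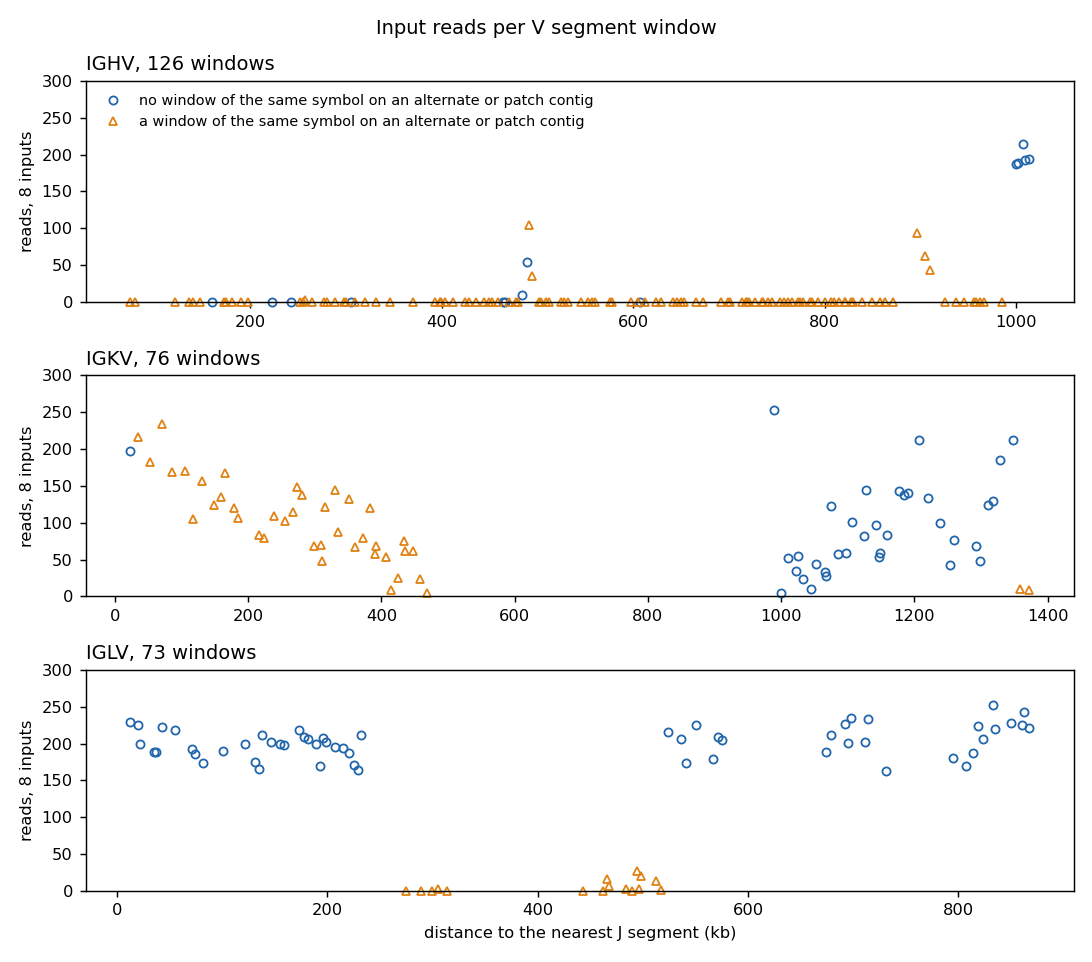
Reads summed over the 8 inputs in each V segment window (vertical axis) against its distance in kb to the nearest J segment (horizontal axis), one panel per locus. Triangles mark windows whose symbol also has a window on an alternate or patch contig. Most IGHV windows and a run of 16 IGLV windows sit at or near 0, and IGKV windows hold a median of 86 reads.

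Input reads in the IGH locus thus came from 13 windows, and 107 of the 126 held no read in any of the 15 libraries. The 5 windows farthest from the J segments, IGHVII-78-1, IGHV3-79, IGHV4-80, IGHV7-81 and IGHVIII-82, held 187, 189, 214, 193 and 194 input reads, close to the genome's median. The other 8 held between 2 input reads, at IGHV1-12, and 104, at the pseudogene IGHV3-29. What follows about IGH describes these windows and not the locus.

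Kappa segments come in a proximal cluster, nearer to the J segments, and a distal, inverted copy of it, whose segments carry a D in their names. The 66 windows whose segment has a copy in both clusters held a median of 78 input reads, and the 10 with a copy in 1 cluster only held 191. Within the 33 pairs, the proximal copy held more input reads in 24 and the distal copy in 9, with medians of 84 and 59 reads. IGKV2-40 held 4 input reads and IGKV2D-40 held 253. IGKV3-34 and IGKV3D-34 were both nearly empty, with 9 and 10 input reads, and so were IGKV1-39 and IGKV1D-39, with 24 and 5.

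The mark was measured as ChIP over input, first as the sum of all V segment windows of a locus. The heavy and kappa loci lay above input in each of the 7 ChIP libraries and the lambda locus did not. Against inputs of 28.2 ± 1.66 CPM (SD, n = 8), the IGHV windows summed to 102 and 84.9 CPM in WT in 10% serum, 85.5 CPM in the ΔLEO1 library in 10% serum, 81.5 and 76.7 CPM in WT in 0.1% serum, and 68.4 and 64.1 CPM in ΔLEO1 in 0.1% serum. No ChIP library overlapped the inputs. With the input of the same genotype, serum and replicate letter taken off, the log2 ratio was 1.51 ± 0.25 over the 7 ChIP libraries (SD, n = 7), or 2.85-fold.

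The IGKV windows gave 152 ± 12.2 CPM in input (SD, n = 8). In ChIP they summed to 406 and 392 CPM in WT and 294 CPM in ΔLEO1 in 10% serum, and to 331 and 317 CPM in WT and 236 and 229 CPM in ΔLEO1 in 0.1% serum. The 7 ChIP libraries again all lay above the inputs, with a log2 ratio of 1.04 ± 0.36 (SD, n = 7) or 2.06-fold. The IGLV windows gave 235 ± 8.91 CPM in input (SD, n = 8) and 233 ± 12.6 CPM in ChIP (SD, n = 7), and the log2 ratio of -0.02 ± 0.08 was within the spread between libraries. These sums count overlapping windows more than once, and they were not tested. In bins of non-overlapping windows, which have their own scale and are given below, each locus had a lower log2 ratio. The folds, and IGL being level with input, thus hold for this set of windows and its scale.

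**Figure D2:**
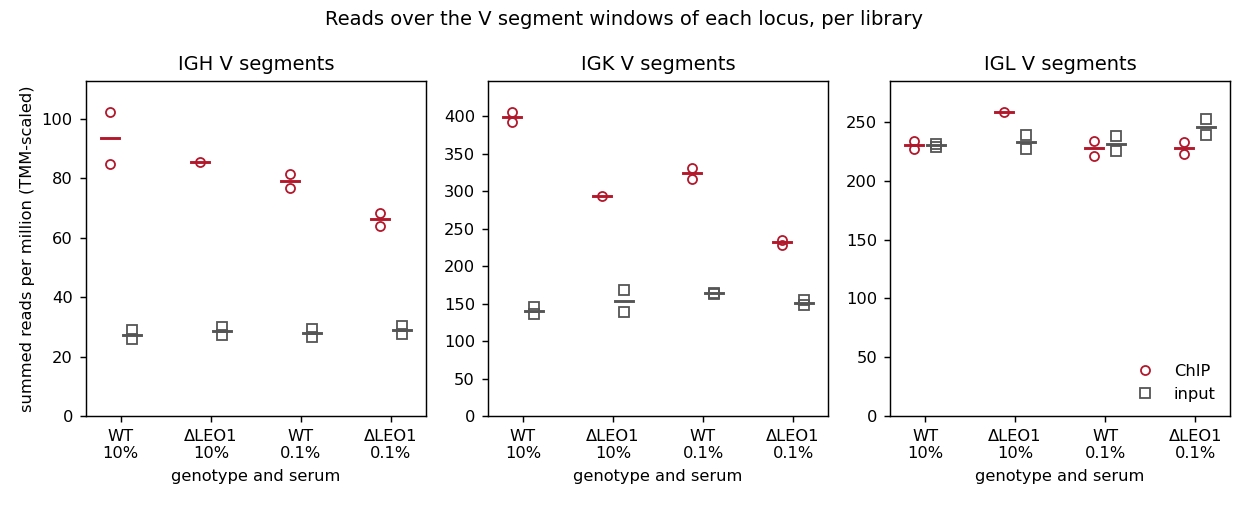
Summed CPM over the V segment windows of each locus in every library (points) with group means (bars), by genotype and serum. ChIP libraries lie above inputs for IGH and IGK in all 4 groups, and for IGL they range from 221 to 259 CPM and overlap the inputs.

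In the test of single windows, called at a Benjamini-Hochberg adjusted p under 0.05 with edgeR's quasi-likelihood test over all 206148 windows with enough reads, 36.4% of windows were higher in ChIP and 38.7% were lower, with a median log2 ratio of -0.04. Of the 275 V segment windows, 134 had enough reads, and 66 of these were higher and 17 lower. With non-overlapping windows only, these counts were 40 and 25. A window with little input can pass the read filter through its ChIP reads, as IGKV3D-31 did with 28 input and 54 ChIP reads, while IGKV1D-35 with 24 and 15 did not, so the counts that follow describe the windows tested and not all members.

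All 11 IGHV windows with enough reads were higher in ChIP (6 of 9 among non-overlapping windows), with a median log2 ratio of 1.33 and a range of 0.72 to 1.68. Some of them passed the read filter only through ChIP libraries, as IGHV3-33 did with 35 input and 54 ChIP reads, so that all being higher was partly set by the filter. Without the filter, 12 of 19 were higher and 0 lower, with a median of 0.88. IGHVII-78-1, a pseudogene at chr14:106864895-106866895, was at 17.3 and 17.0 CPM in WT and 12.1 CPM in ΔLEO1 in 10% serum, and at 13.3 and 12.9 CPM in WT and 10.5 and 11.8 CPM in ΔLEO1 in 0.1% serum. Its inputs lay between 2.58 and 4.79 CPM, below every ChIP library, and its log2 ratio was 1.68 ± 0.16 (SE, edgeR Benjamini-Hochberg adjusted p = 1.88e-20). IGHV3-33, with 35 input reads, had 1.62 ± 0.30. Among windows with at least 50 input reads, IGHVIII-82 and IGHV7-81, at the same end of the locus as IGHVII-78-1, followed with 1.48 ± 0.16 and 1.44 ± 0.18. The lowest of the heavy chain windows were IGHVII-30-21 (0.72 ± 0.28), IGHV1-69D (0.74 ± 0.24) and IGHV2-70 (0.88 ± 0.37), each with under 100 input reads. Of the 11 windows, 4 are annotated by RefSeq as V segments and 7 as pseudogenes, with medians of 1.16 and 1.33.

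Kappa segments were mostly above input as well. Of 66 windows tested, 46 were higher and 2 lower, and the median log2 ratio was 0.94. Among non-overlapping windows, 32 of 64 were higher and 2 lower, with a median of 0.57. Without the read filter, 47 of 76 were higher and 2 lower, with a median of 0.81. The distal cluster was the more strongly marked, with 28 of 31 tested windows higher, 0 lower and a median of 1.14, against 18 higher and 2 lower of 35 in the proximal cluster, with a median of 0.50. As sums per library, the distal windows had a log2 ratio of 1.43 ± 0.32 and the proximal ones 0.65 ± 0.43 (SD, n = 7).

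The same difference was seen between copies of a segment. In 25 pairs with both copies tested, the distal copy had the higher log2 ratio in 22, with medians of 1.13 and 0.62. IGKV3-25 and IGKV3D-25, both pseudogenes, held 144 and 145 input reads, and their log2 ratios were 0.15 ± 0.26 and 1.07 ± 0.19. IGKV2-19 and IGKV2D-19 held 148 and 138 input reads, with 0.93 ± 0.21 and 1.63 ± 0.18. For the coding pair IGKV3-11 and IGKV3D-11, with 167 and 124 input reads, the values were 0.30 ± 0.24 and 1.12 ± 0.20. In 3 pairs the order was turned, at IGKV2-36 (1.37 ± 0.24 against 0.43 ± 0.34), at IGKV1-37 (1.26 ± 0.25 against 0.85 ± 0.33, within the errors of the copies) and at IGKV1-32 (1.07 against 1.06). Median ChIP reads were 57 in proximal and 58 in distal copies, beside the median input reads of 84 and 59. Since a read that fits both copies may have been placed on either or on neither, how far the 2 copies of a pair were measured apart from each other was not tested.

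**Figure D3:**
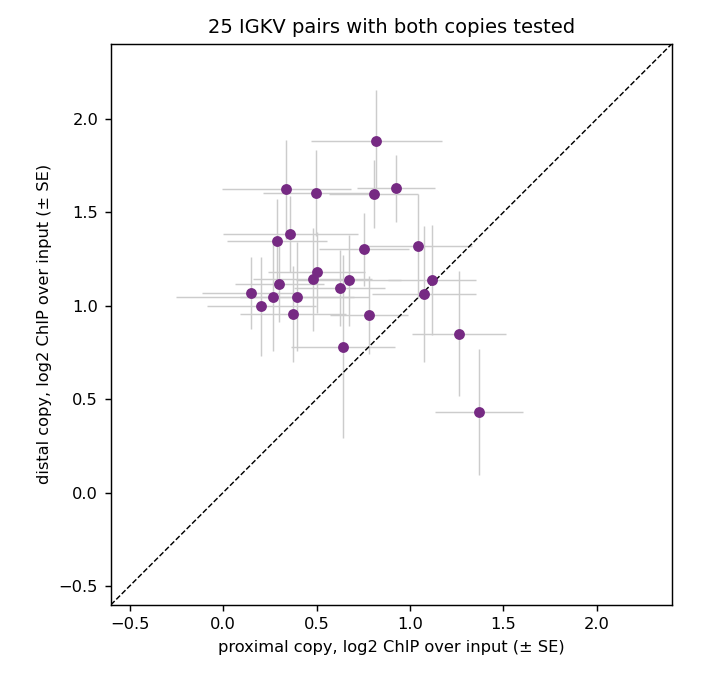
Log2 ChIP over input of the distal copy (vertical axis) against the proximal copy (horizontal axis) for the 25 IGKV pairs with both copies tested, with standard errors and the line of equal values. Of the 25 points, 22 lie above the line.

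The lowest kappa windows lay at the end beside the J segments. IGKV4-1 and IGKV5-2, the V segments nearest to the J segments at 23.5 and 35.3 kb, were the 2 windows called lower. IGKV4-1, the only member of its family, was at 0.911 and 1.52 CPM in WT and 3.86 CPM in ΔLEO1 in 10% serum, and at 2.52 and 2.66 CPM in WT and 1.91 and 2.36 CPM in ΔLEO1 in 0.1% serum. Its inputs ranged from 2.76 to 4.95 CPM, overlapping ChIP at 1 library, and its log2 ratio was -0.70 ± 0.23 (edgeR Benjamini-Hochberg adjusted p = 0.0038). IGKV5-2 also had -0.70 ± 0.22 (adjusted p = 0.00263, edgeR). In the distal cluster, IGKV6D-41 at chr2:90068662-90070662 ranged from 11.7 to 16 CPM in ChIP, with a median of 12.1, and from 2.57 to 6.08 CPM in input. Its log2 ratio was 1.53 ± 0.15 (edgeR Benjamini-Hochberg adjusted p = 9.37e-20).

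Along the whole kappa locus, the log2 ratio of the 66 windows tracked the distance to the nearest J segment (Pearson's r = 0.70, Spearman's rho = 0.72). Within the 35 proximal windows r was 0.64 and rho 0.56, and within the 31 distal windows they were 0.04 and -0.01. These values describe windows that share libraries, and partly sequence, and they are not a test. No such trend was seen for the 57 lambda windows (r = -0.10, rho = -0.02). Family and coding status separated the kappa windows little. Windows of IGKV1, IGKV2 and IGKV3, the large families, had medians of 0.96, 0.97 and 0.82, and V segments and pseudogenes had 0.90 (n = 40) and 0.94 (n = 26).

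**Figure D4:**
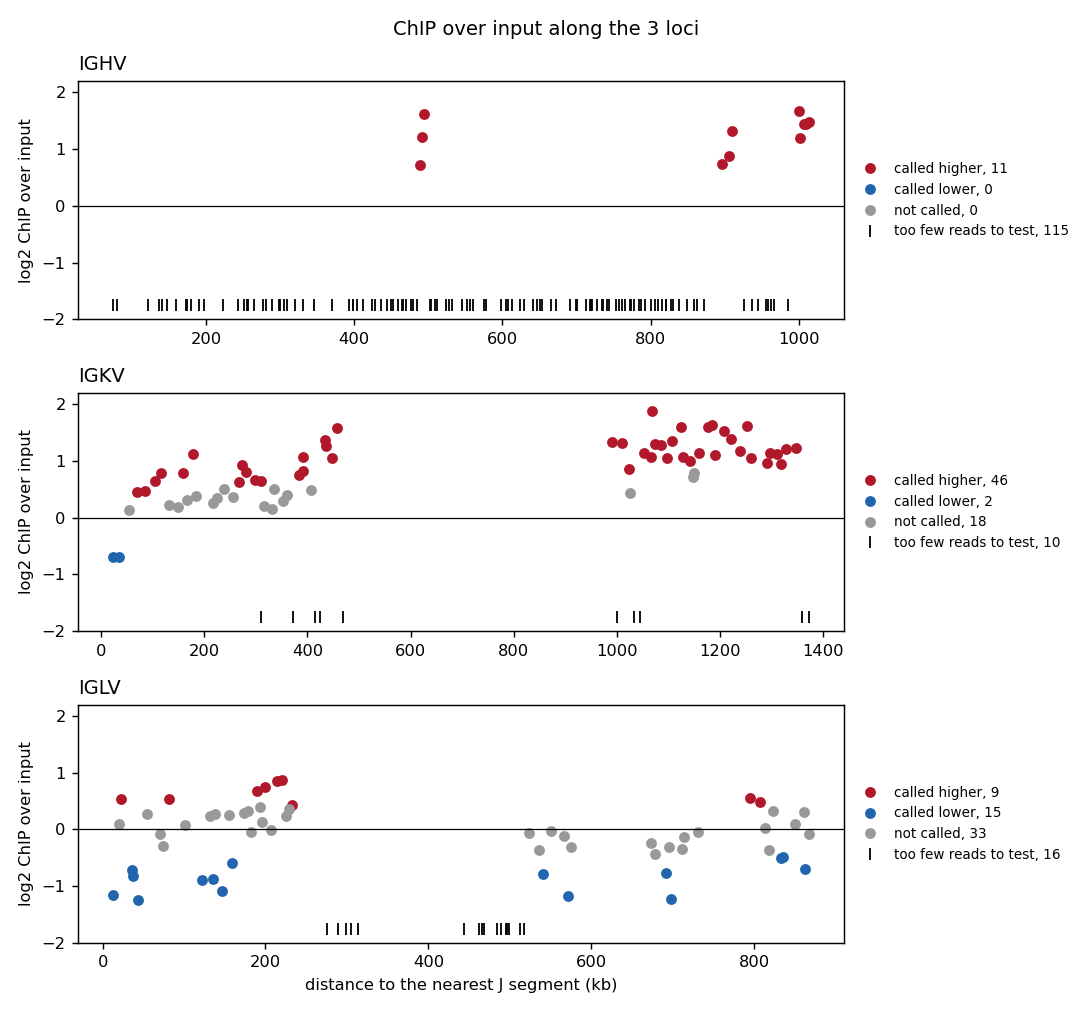
Log2 ChIP over input of each tested V segment window (points, coloured by call) against its distance in kb to the nearest J segment, one panel per locus, with ticks for windows that held too few reads. IGHV points are all above 0, IGKV points climb from -0.70 beside the J segments, and IGLV points lie on both sides of 0.

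Lambda segments were spread on both sides of input. Of 57 windows tested, 9 were higher and 15 lower, with a median log2 ratio of -0.05, near that of all windows. In stretches whose limits were chosen after the values were seen, and which were not tested, the counts were as follows. In the 15 windows from IGLV3-29 to IGLV3-17, 5 were higher and 1 lower (median 0.33). Among the 26 from IGLVI-70 to IGLV7-46, 2 were higher and 7 lower (median -0.28), and among the 16 from IGLV3-16 to IGLV3-1, nearest to the J segments, 2 were higher and 7 lower (median -0.19). Without the last limit, the 31 windows from IGLV3-29 to IGLV3-1 had 7 higher and 8 lower (median 0.23).

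IGLV3-26, a pseudogene, was the highest lambda window, with ChIP levels from 5.40 to 11.4 CPM and inputs from 2.36 to 5.04 CPM, which did not overlap (log2 ratio 0.87 ± 0.19, edgeR Benjamini-Hochberg adjusted p = 1.25e-05). At the other extreme, IGLV6-57 ranged from 1.33 to 2.23 CPM in ChIP and from 2.90 to 5.81 CPM in input, again without overlap (-1.23 ± 0.24, adjusted p = 1.79e-06, edgeR). IGLV3-6, IGLV1-51 and IGLV3-1 were as low, at -1.25 ± 0.25, -1.17 ± 0.25 and -1.16 ± 0.23, and IGLV2-14, a segment common in antibodies, was at -0.88 ± 0.27. By RefSeq annotation, 4 of 29 tested V segments were higher and 10 lower (median -0.11), and of 28 pseudogenes 5 were higher and 5 lower (median 0.17). The calls of the lambda windows moved with the scale, to 2 higher and 23 lower among non-overlapping windows (median -0.40, against 0.05 over all such windows). With DESeq2 they were 4 and 15, and with library totals in place of TMM 7 and 19, settings that moved the median of all windows to -0.20 and -0.15.

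Other gene groups give these levels a frame. T cell receptor V segments, built and recombined in the same way, had 59 of 82 tested windows higher and 6 lower (median 0.70). Olfactory receptors on chromosome 11, another silent family of duplicated genes, had 351 of 414 higher and 5 lower (median 1.03). At VPREB1, a surrogate light chain gene inside the lambda locus, the log2 ratio was 0.02.

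Single windows hold few reads, so counts of non-overlapping windows were also summed in bins of 1000 kb over the whole genome. Of 2881 bins, 43.6% were higher in ChIP and 37.2% lower. The IGH bin (chromosome 14, 106000001 to 107000000), where V segments gave 94.9% of input reads, had a log2 ratio of 0.91 ± 0.07 (edgeR Benjamini-Hochberg adjusted p = 2.39e-11). The first IGK bin (chromosome 2, 89000001 to 90000000, 78.5% of input reads in V segments) had 0.43 ± 0.04 (adjusted p = 5.28e-09, edgeR). The second (90000001 to 91000000, 100% in V segments) had 0.83 ± 0.05 (adjusted p = 5.06e-13, edgeR). The IGL bin (chromosome 22, 22000001 to 23000000) was lower than input at -0.46 ± 0.04 (adjusted p = 1.28e-10, edgeR). V segments gave 57.9% of its input reads and 52.1% of its ChIP reads. As a set they were thus no higher in ChIP over input than the other windows of the bin.

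The effect of LEO1 loss was addressed by comparing ΔLEO1 with WT ChIP within each serum. In 0.1% serum the kappa sum was lower in ΔLEO1, at 232 ± 4.94 CPM against 324 ± 9.89 CPM in WT (SD, n = 2 each), a ratio of 0.716 with no overlap between the libraries. The heavy chain sum was at 66.2 ± 3.01 against 79.1 ± 3.38 CPM, a ratio of 0.838, also without overlap. The lambda sums were 228 ± 7.28 and 227 ± 8.67 CPM and overlapped, with a ratio of 1.00. In 10% serum the ratios of the lone ΔLEO1 library to WT were 0.737 for IGK, 0.913 for IGH, where it lay between the WT libraries, and 1.12 for IGL. With shares of the peak table total in 0.1% serum, the log2 difference was 0.066 for IGH, which turned its direction, -0.16 for IGK (from -0.48) and 0.32 for IGL. The sums were not tested.

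At the level of single windows little passed the test, and at this depth a window that was not called is not shown to be unchanged. In 0.1% serum, 0.0909% of 140885 windows were higher in ΔLEO1 and 0.274% lower. Of 53 IGKV windows tested, 1 was lower and 0 higher, with a median log2 difference of -0.34, 42 values below 0 and 11 above, and 12 at an unadjusted p under 0.05, all of them lower. For 9 IGHV windows the median was -0.27 and for 44 IGLV windows 0.04, against 0.00 over all windows, and none of them was called. At an unadjusted p under 0.05 there were 0 IGHV and 8 IGLV windows, beside 15302 of all 140885 windows.

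The called window was IGKV1D-17, a coding segment at chr2:90081635-90083635. It was at 11.2 and 10.6 CPM in WT and 3.18 and 6.13 CPM in ΔLEO1 in 0.1% serum, from 31, 24, 10 and 13 reads. In 10% serum it was at 11.8 and 10.6 CPM in WT and 6.62 CPM in the ΔLEO1 library. ΔLEO1 thus lay below WT in both sera without overlap, and in 0.1% serum the log2 difference was -1.16 ± 0.31 (edgeR Benjamini-Hochberg adjusted p = 0.0499). This call sits at the threshold, and DESeq2 called 0 of all windows in this contrast, where 1761 had an unadjusted p under 0.05.

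Its proximal copy IGKV1-17 came just short of it. That window was at 6.85 and 6.21 CPM in WT and 1.59 and 1.89 CPM in ΔLEO1 in 0.1% serum, with a log2 difference of -1.53 ± 0.41 (edgeR Benjamini-Hochberg adjusted p = 0.0502). IGKV3-11 had -1.43 ± 0.39 (adjusted p = 0.057, edgeR), while its distal copy IGKV3D-11 had 0.00 ± 0.34. The largest positive values in the kappa locus by p were those of IGKV1D-13 (0.53 ± 0.50) and IGKV2-19 (0.34 ± 0.35). For IGH and IGL, IGHV3-29 (-0.67 ± 0.36), IGHV3-33 (-0.65 ± 0.46), IGLV2-28 (-1.16 ± 0.38) and IGLV3-29 (-0.96 ± 0.36) had the smallest p among negative values. IGHV1-69D (0.35 ± 0.46), IGLV3-13 (0.86 ± 0.39) and IGLVI-68 (0.72 ± 0.33) had the smallest p among positive ones.

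Over bins, and relative to the rest of the genome, the kappa locus was lower in ΔLEO1 in 0.1% serum. There, 5.18% of 2874 bins were higher and 11.4% lower. On its spike-in scale, which was not used here, the study reports H3K9me2 as globally raised in quiescent ΔLEO1 cells. The first IGK bin held 391 and 324 CPM in WT and 263 and 275 CPM in ΔLEO1, and it fell by a log2 difference of -0.43 ± 0.08 (edgeR Benjamini-Hochberg adjusted p = 0.000198). The second held 191 and 209 CPM in WT and 158 and 143 CPM in ΔLEO1, a difference of -0.40 ± 0.09 (adjusted p = 0.00235, edgeR). In both bins the libraries of the genotypes did not overlap. The IGH bin had -0.22 ± 0.11 (adjusted p = 0.189, edgeR) and the IGL bin 0.03 ± 0.05 (adjusted p = 0.729, edgeR).

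The kappa calls and the lambda value depended on the scale, and the kappa calls on the background as well. With the input difference taken off in a fit of 15 libraries, the kappa differences were -0.36 (adjusted p = 0.17, edgeR) and -0.34 (adjusted p = 0.298). With the totals of the peak table as library sizes, which raised the median of all bins by 0.33, they were -0.10 and -0.086 and not called, so that both remained below that median. On that scale the IGL bin was called higher, as were 2096 of 2874 bins, at 0.36 (adjusted p = 9.32e-07, edgeR), close to the median. In the inputs themselves, no bin of the 3 loci was called between genotypes (adjusted p-values of at least 0.896, edgeR). There, 0 of 119 V segment windows tested were called, with 6 at an unadjusted p under 0.05, beside 11460 of all 206484 windows.

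**Figure D5:**
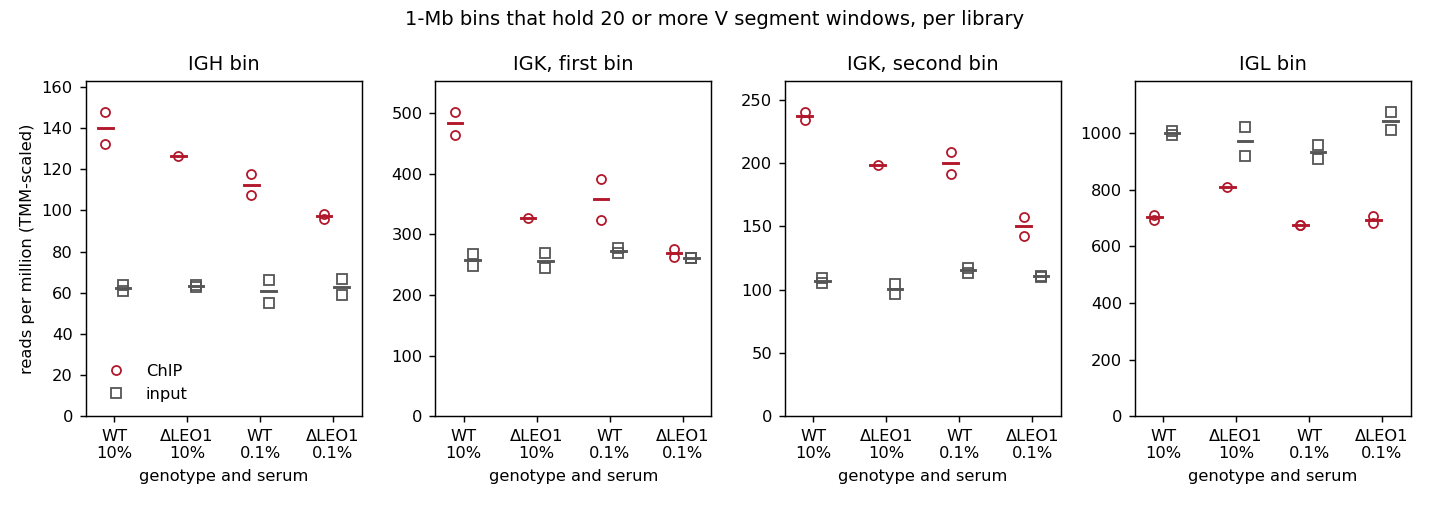
CPM in the 1000-kb bins that hold the V segments, for each ChIP library (circles) and input (squares) with group means (bars), by genotype and serum. In both IGK bins the ΔLEO1 ChIP libraries lie below the WT libraries of the same serum, while the inputs stay between 244 and 277 CPM in the first and between 96.8 and 117 CPM in the second.

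In 10% serum, with 1 ΔLEO1 library, 0.00426% of windows were higher and 0.0206% lower, and no V segment window was called. The medians were -0.62 for IGK, -0.19 for IGH and 0.11 for IGL. Of all bins, 0.348% were higher and 2.78% lower. The first IGK bin, at 503 and 463 CPM in WT and 328 CPM in ΔLEO1, fell by a log2 difference of -0.56 ± 0.10 (edgeR Benjamini-Hochberg adjusted p = 0.00123), and the second had -0.26 ± 0.11 (adjusted p = 0.23, edgeR). The IGL bin had 0.20 ± 0.06 (adjusted p = 0.0798, edgeR) and was called with peak table totals, at 0.43 (adjusted p = 8.91e-05, edgeR). The IGH bin had -0.15 ± 0.14. Peak table totals put the median of all bins at 0.23 in this contrast, a shift that the IGL value of 0.43 includes.

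The effect of serum was addressed within each genotype, and this comparison shares the 0.1% serum libraries with the genotype contrast. In WT the kappa sum was 399 ± 10.3 CPM (SD, n = 2) when proliferating and 324 CPM when quiescent, a ratio of 0.812 without overlap. The heavy chain ratio was 0.844, without overlap, from 79.1 against 93.7 ± 12.5 CPM, and the lambda ratio of 0.987 was within the spread. In ΔLEO1 the ratios were 0.789 for IGK, 0.775 for IGH and 0.880 for IGL, against 1 library in 10% serum. With shares of the peak table total, the log2 differences in WT were -0.16 for IGK and -0.094 for IGH. With the input of each library taken off, the WT kappa log2 difference widened from -0.30 to -0.52, beside inputs of 141 ± 6.51 CPM when proliferating and 164 ± 1.52 CPM when quiescent.

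No V segment window was called for serum. In WT, 0.0717% of all windows were higher in 0.1% serum and 0.189% lower. The 53 IGKV windows had a median log2 difference of -0.31 with 6 above 0. Of the 106 V segment windows, 10 were at an unadjusted p under 0.05, beside 13544 of all 140885 windows. IGKV2-19, at 9.56 and 11 CPM in 10% serum and 4.69 and 3.99 CPM in 0.1% serum in WT, had -1.13 (edgeR Benjamini-Hochberg adjusted p = 0.0927). In ΔLEO1, 0.0142% of windows were higher and 0.0525% lower. The medians in ΔLEO1 were -0.36 for IGK, -0.40 for IGH and -0.37 for IGL.

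Over bins, 6.92% were higher and 12.7% lower in 0.1% serum in WT. The first IGK bin fell by a log2 difference of -0.40 ± 0.07 (edgeR Benjamini-Hochberg adjusted p = 0.000343), from 503 and 463 to 391 and 324 CPM, and with the input difference taken off it was -0.51 (adjusted p = 0.00563). The second IGK bin fell by -0.24 ± 0.08 (adjusted p = 0.0451, edgeR), a call lost without WT 0.1% serum replicate A (-0.17), WT 10% serum replicate A (-0.22) or replicate B (-0.26). The IGH bin had -0.29 ± 0.11 (adjusted p = 0.055, edgeR) and the IGL bin -0.04 ± 0.05. In ΔLEO1, 7.93% of bins were higher and 11.2% lower, and here the second IGK bin (-0.38 ± 0.12, adjusted p = 0.0297, edgeR) and the IGL bin (-0.21 ± 0.06, adjusted p = 0.0177, edgeR) fell, while the first IGK bin (-0.28 ± 0.11, adjusted p = 0.0641) and the IGH bin (-0.36 ± 0.15, adjusted p = 0.0866) were not called. Peak table totals put the median of all bins at 0.16 for serum in WT and at 0.24 in ΔLEO1. On that scale the second IGK bin in ΔLEO1 was at -0.14 and the IGL bin at 0.034, neither of them called. The second IGK bin in WT was at -0.080 (adjusted p = 0.579, edgeR) and not called.

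Whether the genotypes responded differently to serum was tested as an interaction. For the bins of the 3 loci the adjusted p-values lay between 0.609 and 0.948 (edgeR), and the test called 0 of all 140885 windows. An unadjusted p under 0.05 was reached by 7809, of which 7 are V segment windows. The IGL bin, which was called lower with low serum in ΔLEO1 and not called in WT, had an interaction of -0.17 ± 0.08 (adjusted p = 0.609, edgeR), so that the responses of the genotypes are not shown to differ.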

How the data were processed

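ChIP and input DNA of BJ-5ta cells were sequenced in 16 libraries. The authors deposited raw read counts, whole numbers per library, over start site windows and merged peak regions. The submitters' processing notes name hg38, dm6, bcl2fastq 2.20.0.422, STAR 2.7.10a and HOMER without their roles, and the treatment of reads with several matches is not given in the sources used here. The study's methods scale ChIP to the fly spike-in, which was not used here.

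Windows with distinct coordinates in 15 libraries (7 ChIP, 8 input), and non-overlapping windows summed in 1000-kb bins with at least 3 windows, were tested with the quasi-likelihood test of edgeR 4.0.16 (R 4.3.3, limma 3.58.1). The fits used 1 coefficient per group, filterByExpr with a minimum count of 10, TMM, a prior count of 2 and Benjamini-Hochberg adjustment over everything tested, with a threshold of 0.05, two-sided. Genotype and serum contrasts came from a fit of the 7 ChIP libraries, ChIP over input from the fit of 15. Standard errors were derived from the F statistic. The code was tested on simulated data.

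The members, gene lists and naming rule were chosen with earlier results of these data known. Named were the 3 highest and 3 lowest windows per locus in ChIP over input with at least 50 input reads, every called member or, where these were over 8, the 4 with the smallest p each way, the 2 with the smallest p each way in the genotype contrast in 0.1% serum, kappa pairs with the 3 highest and 3 lowest input reads, and 6 well known segments. Other members are named as the extremes of a count and were chosen after their values were seen, among them IGKV3D-31, IGKV1D-35, IGKV2-40, IGKV2-36, IGKV1-37 and IGKV1-32. Alternatives were no filter, library totals, DESeq2 1.42.0, a replicate block, windows as deposited or without overlap, bins of 500 kb, each library left out, the input difference taken off, peak table totals, the left-out library included and, for IGK, orphons added. V segment promoter sequences were not used here. A list of B cell genes is not reported here.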

Additional observations from a re-analysis of the deposited data

How the results depend on the processing

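Of 448 alternative values for the main results, 398 were taken as kept, and the rest are given here with their cause not tested. A kept test held its direction and its side of the threshold, and a kept sum stayed within the spread. A kept count of called members was equal to the main count or not far from it. That includes counts of 0 against 0 and the larger number called lower than input among non-overlapping windows. Members called higher in ChIP than in input numbered 40 among non-overlapping windows, a set with fewer windows. The 1 member called lower in ΔLEO1 in 0.1% serum became 0 with DESeq2, with ΔLEO1 10% serum replicate A included, with the input difference taken off, with library totals and with peak table totals, 3 among non-overlapping windows and 0 to 1 when single libraries were left out, with 0 without WT 0.1% serum replicate A or B or ΔLEO1 0.1% serum replicate A.

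Peak table totals as library sizes, chosen for bins after the data were seen, raised the median of all bins by 0.33 for ΔLEO1 against WT in 0.1% serum. In that contrast the bins were then at 0.10 for IGH, -0.10 (adjusted p = 0.32, edgeR) and -0.086 (0.504) for IGK, and 0.36 (9.32e-07) for IGL. In 10% serum they gave 0.086 for IGH and 0.43 (8.91e-05) for IGL. For serum they gave -0.080 (0.579) for the second IGK bin and 0.11 for IGL in WT, and -0.14 (0.462) and 0.034 in ΔLEO1. Taking the input difference off, also chosen later, gave -0.36 (0.17) and -0.34 (0.298) for the IGK bins and -0.12 for IGL in ΔLEO1 against WT, and 0.042 for IGL for serum in WT. In bins of 500 kb, the later stretch of the first IGK bin was at -0.26 (0.0706) and that of the IGL bin at -0.081 for ΔLEO1 against WT, and the earlier stretch of the IGL bin at 0.0048 for serum in WT. When single libraries were left out, the second IGK bin ranged from -0.30 to -0.17 for serum in WT, and the input difference between genotypes in the IGH bin from -0.028 to 0.10, an alternative added later.

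Samples with the same letter did not deviate together in ChIP, with correlations of the A minus B difference of 0.00 to 0.01 over windows and 0.04 to 0.09 over bins. In the inputs these correlations were all positive, from 0.01 to 0.12 and from 0.09 to 0.43, and whether the letter pairs the inputs was not tested. The main fits did not pair samples by letter, while the ratios of the locus sums used the input of the same letter. The replicate block gave 2 members lower in ΔLEO1 in 0.1% serum and called the IGL bin in 10% serum (0.19, adjusted p = 0.0468, edgeR), the IGH bin for serum in WT (-0.30, 0.0303) and the IGH (-0.43, 0.0461) and first IGK bins (-0.35, 0.0124) for serum in ΔLEO1. It changed no other call among the main results.

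For the sums, shares of the peak table total gave 0.066 (IGH), -0.16 (IGK) and 0.32 (IGL) for ΔLEO1 against WT in 0.1% serum and -0.094, -0.16 and 0.12 for serum in WT. Input of the same letter taken off gave -0.36 (IGK) and -0.084 (IGL) for genotype and -0.52 (IGK) for serum, orphons on chromosome 2 gave -0.42 (IGK, genotype), and library totals gave -0.15 for IGL ChIP over input. Single libraries left out gave -0.37 to -0.10 for IGH and serum. Among named windows in ChIP over input, non-overlapping windows turned IGKV3-11 (-0.044), IGKV3-25 (-0.19), IGKV7-3 (-0.22) and IGLV3-13 (-0.10), and DESeq2 turned IGKV3-25 (-0.047) and IGKV7-3 (-0.015), none of them called. Left-out libraries gave -0.082 to 0.33 for IGKV3-25 and -0.17 to 0.29 for IGLV3-13.

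Few reads limit single windows, where a member's ChIP level often rests on under 30 reads a library. Depth cannot show the mark at the 113 heavy chain windows without input reads. The genotype rests on 1 clone, and ΔLEO1 in 10% serum on 1 ChIP library.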

Other observations

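Orphon V segments, 55 copies of V segments that lie outside the working loci or are named as orphons, were measured in the same fits. Of 27 windows tested, 20 were higher and 2 lower in ChIP than in input, with a median log2 ratio of 0.86. Over all windows tested, 36.4% were higher and 38.7% lower. In ΔLEO1 against WT in 0.1% serum, 1 of 21 was lower by edgeR's quasi-likelihood test, beside 0.274% of all windows. The median log2 difference of the 21 was 0.06.

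The J and constant segments of IGK, 6 windows of which those of the J segments overlap, had a median log2 ratio of ChIP over input of 0.37. The windows of IGKJ1 (0.76 ± 0.20), IGKJ2 (0.50 ± 0.20) and IGKJ3 (0.52 ± 0.19) were called higher, and these names were chosen after their values were seen. Of 15 IGL windows tested, 2 were higher and 3 lower (median -0.10), but this list holds the orphons IGLCOR22-1 and IGLCOR22-2, which lie outside the locus and gave 1 of the lower and 1 of the higher calls. Of 36 tested windows of genes in or next to the loci, 0 were higher and 15 lower. Over all tested windows, 38.7% were lower, and many windows of a gene overlap. All the lower calls were at PPM1F and TOP3B, which lie outside the span of the IGLV windows. VPREB1, BMS1P20, GGTLC2, VPREB3, IGLL1 and IGLL5 were not called.

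T cell receptor V segments had 11 of 75 windows called lower in ΔLEO1 in 0.1% serum, with a median log2 difference of -0.53, while olfactory receptors on chromosome 11 had 1 of 409 and a median of 0.01. Of all windows 0.274% were called lower, and of the IGKV windows 1 of 53, with a median of -0.34.

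Of 16092 merged peak regions, 1 lay within the span of the IGHV windows, at chr14:106864985-106865925 inside the window of IGHVII-78-1, with 129 ChIP and 89 input reads. In the kappa span 6 peak regions lay between the proximal and distal clusters, and 0 lay in the lambda span. None of the 7 was called for genotype or for serum in WT by edgeR's quasi-likelihood test, and 0 of them had an unadjusted p under 0.05.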
